A study of Mus musculus with 16 samples.

Results

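The NR4A orphan nuclear receptors and a set of immediate early genes were followed in RAW264.7 cells, a mouse macrophage line transformed by a leukemia virus, kept for 24 h in 4 conditions. There were 10 such genes among 18820 measured: the receptors Nr4a1, Nr4a2 and Nr4a3, the zinc finger factors Egr1, Egr2 and Egr3, the AP-1 and ATF factors Fos, Fosb and Atf3, and Ier3. The list was chosen by name with earlier results of these arrays known, namely the log2 differences of LPS+DHA5HT against LPS, in which Nr4a1 and Nr4a3 were among the largest decreases in cells given both agents compared with LPS alone. That comparison is therefore described here with no p-value for a listed gene, and counts of calls in it only describe the fits. Each of the 10 was read by 1 probe set that named no other gene. The control cells received solvent (ethanol, 0.1% by volume). For the other groups no ethanol content is given in the labels. The DHA5HT cells received docosahexaenoyl serotonin, in which docosahexaenoic acid is linked to serotonin, at a dose of 1 µM. The LPS cells received lipopolysaccharide, a bacterial cell wall component, at 1 µg/ml, and the LPS+DHA5HT cells received both agents at these doses. Each group held 4 arrays, 16 in all. Each was a single cell line in culture, and nothing in the labels told separate cultures from repeat wells, so a p-value here speaks of the spread among these samples alone, which may be technical.

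Immediate early genes are switched on by signals without new protein synthesis, through factors already in the cell such as CREB, SRF and NF-kB. Many of their products are transcription factors, and many of their transcripts decay quickly. NR4A receptors have a ligand pocket filled by bulky side chains, so their activity is set largely by how much of them is made, and in macrophages they are known as products of inflammatory signalling that restrain NF-kB target genes. EGR factors bind GC-rich sites, FOS proteins pair with JUN proteins to form AP-1, ATF3 represses many genes of the Toll-like receptor response, and IER3 is a small protein linked to cell survival.

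The promoters of the listed genes are shown because cyclic AMP response elements (CRE) before the start are a known feature of NR4A genes. RefSeq promoter sequences of build GRCm38.p6 were used for 8 of the 10 genes, with Egr1 and Egr3 left out. The 250 bases before each start were searched on both strands. The motifs were the CRE core TGACG, the CRE palindrome TGACGTCA (which holds the core on both strands), the AP-1 site TGANTCA, the NBRE AAAGGTCA bound by NR4A receptors, TATAAA, the CArG box of SRF and the NF-kB site. Nr4a1, Nr4a2 and Nr4a3 held 4 CRE cores each, a number reached or passed in 45 of 32851 promoters (0.137%). Fos held 2, Atf3 and Fosb 1 each, and Ier3 0, while 17.8% of promoters held at least 1. Capitals mark motif matches. For Nr4a1 and Nr4a3 only stretches of 30 bases around the cores are given, named by their distance from the start.
Nr4a1, −245 to −216, chr15:101266601-101266630, plus strand: ccgcgctccctgCGTCAatggaaccccgcg
Nr4a1, −225 to −196, chr15:101266621-101266650, plus strand: gaaccccgcgtgCGTCAcgcgcgcagacat
Nr4a1, −81 to −52, chr15:101266765-101266794, plus strand: ccgggccgtgtgCGTCAgtggcgcccccgc
Nr4a1, −52 to −23, chr15:101266794-101266823, plus strand: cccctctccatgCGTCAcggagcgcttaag
Nr4a3, −234 to −205, chr4:48045071-48045100, plus strand: gggTGACGtagcgtcccatgtCGTCAcatt
Nr4a3, −217 to −188, chr4:48045088-48045117, plus strand: atgtCGTCAcatTGACGtctcgcattccag
Nr4a3, −159 to −130, chr4:48045146-48045175, plus strand: ctgtggcataaaTGACGtgccgagagagcg
Nr4a2, chr2:57124004-57124253, minus strand: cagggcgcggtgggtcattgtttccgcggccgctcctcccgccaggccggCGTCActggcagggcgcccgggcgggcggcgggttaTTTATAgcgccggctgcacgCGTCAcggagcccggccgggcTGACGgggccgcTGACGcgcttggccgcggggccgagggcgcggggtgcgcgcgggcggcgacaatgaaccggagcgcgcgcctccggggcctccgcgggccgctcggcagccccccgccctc
Fos, chr12:85473640-85473889, plus strand: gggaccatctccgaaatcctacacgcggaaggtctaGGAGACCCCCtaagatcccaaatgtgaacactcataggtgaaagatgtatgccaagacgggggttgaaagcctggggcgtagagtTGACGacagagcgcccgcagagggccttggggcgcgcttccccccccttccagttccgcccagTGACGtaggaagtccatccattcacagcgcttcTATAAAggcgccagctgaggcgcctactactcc
Ier3, chr17:35821463-35821712, plus strand: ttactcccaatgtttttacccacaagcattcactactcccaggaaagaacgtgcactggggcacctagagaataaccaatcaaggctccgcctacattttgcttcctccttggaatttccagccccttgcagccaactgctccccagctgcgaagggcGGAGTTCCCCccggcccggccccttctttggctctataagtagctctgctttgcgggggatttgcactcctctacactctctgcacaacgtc

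In the Nr4a2 window the capitals are the 4 CRE cores and a TATAAA match on the opposite strand. In the Fos window they are an NF-kB match, 2 CRE cores and TATAAA, and in that of Ier3 an NF-kB match alone. NF-kB matches were found in 3.90% of promoters and TATAAA in 12.4%. Egr2 has 5 starts in the RefSeq table. Of their windows 3 overlap and share 2 CRE cores and the CArG box CCATATATGG, and a window farther upstream holds another CArG box, CCTTTTTTGG, a motif found in 1.47% of promoters. The TGACGTCA palindrome (1.55% of promoters), the AP-1 site (6.75%) and the NBRE (1.34%) were in 0 of the windows of these 8 genes. These matches describe the letters in the windows and show no binding in these cells.

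All values below are deposited log2 intensities from RMA, so a fold is 2 to the power of the difference. An error after ± is an SD over n = 4 arrays, and an SE comes from limma, save that of a share of the LPS response. All 9 macrophage markers were well expressed, with means over 16 arrays from 8.93 to 12.55. Of 17 measured markers of T cells, B cells, epithelial cells and fibroblasts the median was 3.66, which serves here as a background level. Their means ran from 2.77 to 5.32, so bounds and folds that start from values within that range are approximate. A principal component that held 70.6% of the variance separated the arrays with LPS from those without. Array 4 of the LPS+DHA5HT group stood apart on the next component, which held 4.72%, at 22.4 against at most 9.36 for the others. Array 1 of that group has a title naming both agents and a treatment label naming DHA5HT alone. The title was followed, and differences from LPS alone are also given without these arrays.

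LPS against control asks which of these genes were raised at 24 h, and no earlier time was measured. LPS raised 8 of the 10 genes and lowered 0. Nr4a1 rose 28.7-fold, Egr1 5.91-fold, Ier3 2.99-fold and Nr4a3, whose control arrays lay under the background level, at least 2.61-fold. Egr3 and Fosb did not pass. Its LPS arrays also entered the comparison that bore on the choice of genes. The share of all genes called in this comparison was 28.4%, with 12.6% higher and 15.8% lower (limma, Benjamini-Hochberg adjusted p under 0.05 over 18820 genes). In 8 of 10 genes every LPS array lay above every control array, as for 13.7% of all genes (29.8% in either direction). In bulk RNA of a culture, a change in the share of responding cells and a change in RNA per cell cannot be told apart.

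Among the receptors, Nr4a1, also known as NUR77, read 4.65, 5.11, 5.36 and 5.32 in control arrays 1 to 4 and 9.86, 10.24, 9.73 and 9.97 in LPS arrays 1 to 4. Its means of 5.11 ± 0.33 and 9.95 ± 0.22 differed by 4.84 (SE 0.22), or 28.7-fold (limma adjusted p = 1.49e-11). Nr4a3, also known as NOR1, read 2.98, 2.83, 2.97 and 2.83 in control arrays 1 to 4 and 4.96, 4.64, 5.14 and 5.46 with LPS. Every control array lay below the background level of 3.66 and every LPS array above it. Against that level the increase was at least 2.61-fold, and the fitted difference was 2.15 (SE 0.15, limma adjusted p = 5.84e-09). Nr4a2, also known as NURR1, read 6.15, 6.00, 5.91 and 5.95 in control arrays and 6.4, 6.82, 6.4 and 6.73 with LPS. The groups did not overlap, but the step was small, 0.59 (SE 0.10), or 1.5-fold (limma adjusted p = 0.000102).

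The EGR genes also responded unequally. Egr1, an activator induced by many growth and stress signals, read 5.24, 5.36, 5.58 and 5.50 in control arrays and 7.72, 8.13, 8.17 and 7.91 with LPS. The difference of 2.56 (SE 0.18) amounted to 5.91-fold (limma adjusted p = 6.12e-09). Egr2, a factor of macrophage and lymphocyte activation, read 4.81, 4.66, 5.09 and 4.89 in control arrays and 5.85, 5.61, 6.07 and 5.69 with LPS, a difference of 0.94 (SE 0.13, limma adjusted p = 2.1e-05). Egr3 read 4.71 to 4.93 in control and 4.90 to 5.27 in LPS arrays. These ranges overlapped, and the difference of 0.21 (SE 0.11) did not pass (limma adjusted p = 0.171).

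Of the AP-1 and ATF genes, Fos read 5.94, 5.74, 6.13 and 5.59 in control arrays and 6.95, 6.88, 6.91 and 6.78 with LPS. The LPS arrays were tightly grouped (SD 0.07), and the difference of 1.03 (SE 0.14) was 2.04-fold (limma adjusted p = 1.3e-05). Fosb, a relative of Fos, lay close to the background level, at 3.82 to 4.14 in control and 3.70 to 4.48 in LPS arrays, with a difference of 0.12 (SE 0.13, limma adjusted p = 0.591). Atf3 was bright before any stimulus, at 11.17, 11.20, 10.74 and 11.08 in control arrays, and read 11.45, 11.56, 11.28 and 11.49 with LPS. Its groups did not overlap, and the rise was 0.40 (SE 0.11, 1.32-fold, limma adjusted p = 0.00812). The highest value on any array was 13.68, and whether steps are compressed at the level of Atf3 was not tested.

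Ier3 read 7.70, 8.39, 7.59 and 8.33 in control arrays and 9.56, 9.84, 9.43 and 9.51 with LPS. The control arrays fell into a lower and a higher pair (SD 0.42), yet all lay below the LPS arrays, and the difference was 1.58 (SE 0.20), or 2.99-fold (limma adjusted p = 8.09e-06).

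**Figure D1:**
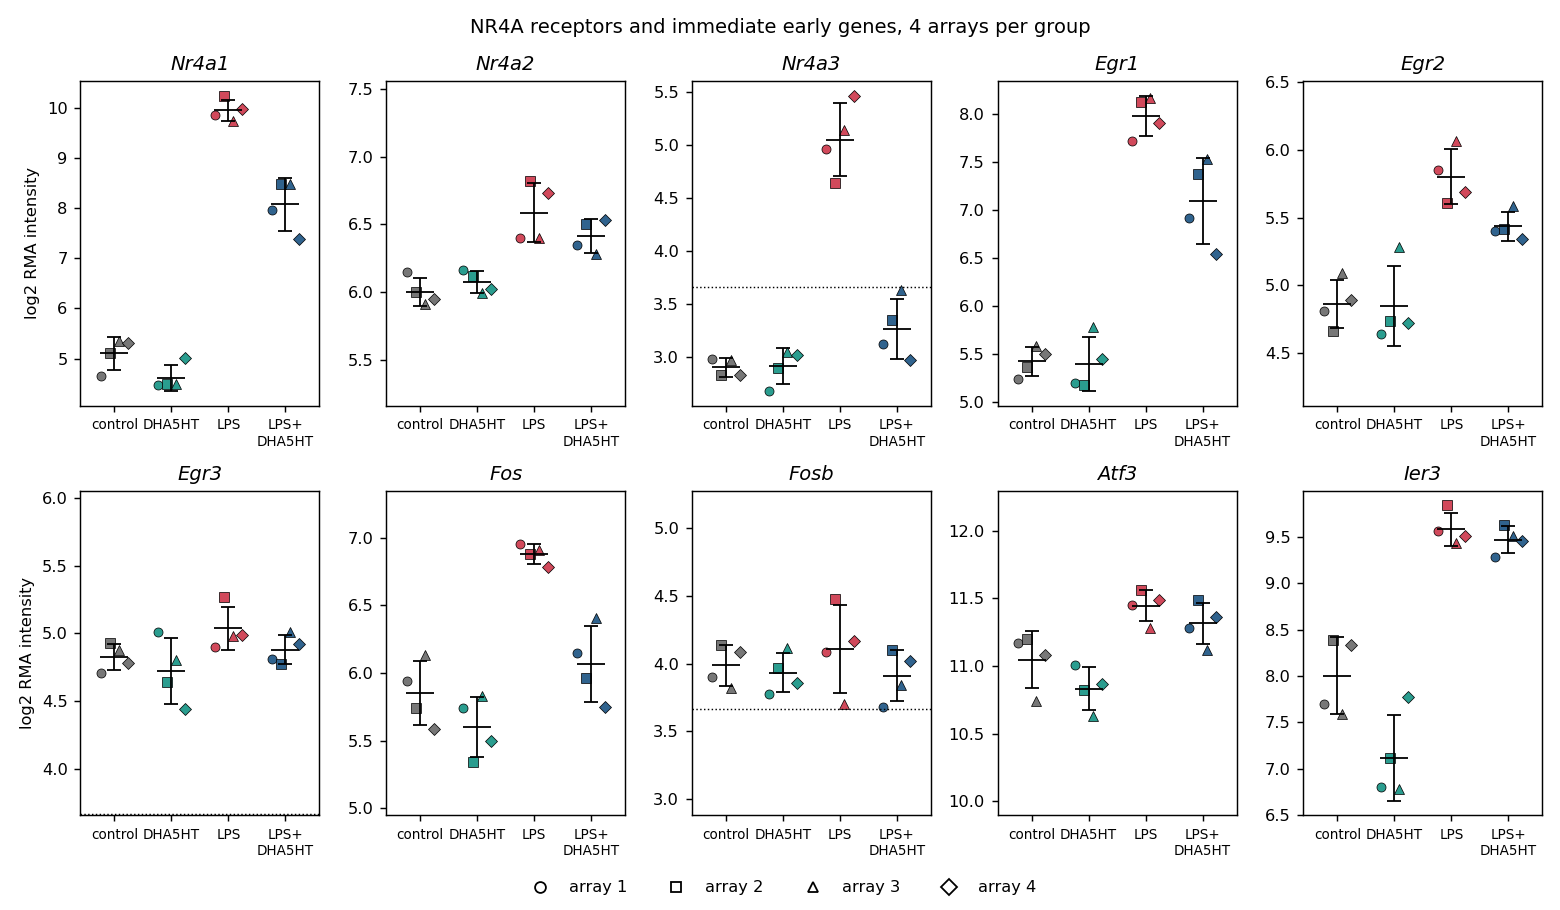
Log2 RMA intensity (vertical axes, 1 panel per gene, each with its own range) in the 4 arrays of each group, with marker shapes for array numbers, bars at the mean and whiskers of 1 SD. The dotted line is the background level of 3.66. Nr4a3 lies above that line in the LPS arrays and below it in the 3 other groups, while for Ier3 the LPS+DHA5HT arrays (9.28 to 9.63) overlap the LPS arrays (9.43 to 9.84).

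The LPS response in the presence of DHA5HT was taken from LPS+DHA5HT against DHA5HT, which shares no array with LPS against control. Its LPS+DHA5HT arrays entered the comparison that bore on the choice of genes. Here 7 of the 10 genes rose and 0 fell, where 28.1% of all genes were called, 12.4% higher and 15.7% lower. In 6 genes the groups did not overlap, all higher, as in 12.8% of all genes (28.5% in either direction). Nr4a1 was again the most raised, by 3.46 (SE 0.22, 11-fold, limma adjusted p = 1.5e-09). Ier3 rose by 2.35 (SE 0.20, limma adjusted p = 8.3e-08) and Egr1 by 1.70 (SE 0.18, limma adjusted p = 1.09e-06). Egr2 (0.59, SE 0.13), Atf3 (0.48, SE 0.11), Fos (0.47, SE 0.14) and Nr4a2 (0.34, SE 0.10) rose less, with limma adjusted p from 0.00189 to 0.015. Nr4a3 did not pass (0.35, SE 0.15, adjusted p = 0.101), and all 8 arrays of its compared groups lay below the background level.

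Some of these calls rested on single arrays. Without DHA5HT array 2 or LPS+DHA5HT array 3 the Fos call was lost (0.38 and 0.36, limma adjusted p = 0.0584 and 0.0602). Without LPS+DHA5HT array 4 the call of Nr4a3 was gained (0.45, limma adjusted p = 0.0406). Without arrays 1 and 4 together it was gained too (0.57, limma adjusted p = 0.0212), and that of Nr4a2 was lost (0.32, limma adjusted p = 0.071). The main effect of LPS is the mean of both LPS groups minus that of the others. It uses the LPS and LPS+DHA5HT arrays of the comparison by which the genes were chosen. Its error is uncorrelated with that comparison only where these groups have equal spread. Their SDs were 0.22 and 0.53 for Nr4a1 and 0.20 and 0.11 for Egr2. The main effect gave 8 genes higher and 0 lower, where 36.4% of all genes were called, 16.4% higher and 20.0% lower. They were the same 8 genes as in LPS against control, with differences of 4.15 (SE 0.15) for Nr4a1, 2.13 (SE 0.13) for Egr1, 1.97 (SE 0.14) for Ier3 and 1.25 (SE 0.11) for Nr4a3.

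DHA5HT against control asks whether the compound acts on these genes in resting cells, and no array of this comparison entered the one that drew attention to them. Of the 10 genes 0 passed in limma, where 0.600% of all genes were called (0.122% higher, 0.478% lower), and 2 had an unadjusted p under 0.05, Ier3 and Nr4a1, both with lower means. No gene had groups that failed to overlap, where 5.89% of all genes did, 3.03% higher and 2.85% lower. Ier3 read 6.80, 7.12, 6.78 and 7.77 in DHA5HT arrays 1 to 4, so array 4 lay above control arrays 1 and 3. Its mean of 7.12 ± 0.46 differed from that of control by −0.885 (SE 0.20, limma adjusted p = 0.0622). The adjusted p was 0.0282 without control array 3 and 0.00336 without DHA5HT array 4, and ranged from 0.0531 to 0.237 without any other array. It was 0.0202 with an intensity trend and 0.0344 among genes brighter than the median gene. With the array number as a block the limma adjusted p was 0.0118, and with a fit on the compared arrays alone it was 0.23. By array number, Ier3 was lower with DHA5HT than in control in 4 of 4.

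Nr4a1 read 4.48, 4.49, 4.49 and 5.01 in DHA5HT arrays, 3 of them below every control array and array 4 among them, a difference of −0.49 (SE 0.22, limma adjusted p = 0.471). Fos read 5.74, 5.34, 5.83 and 5.50, and Atf3 read 11.01, 10.82, 10.63 and 10.87, with differences of −0.25 (SE 0.14) and −0.21 (SE 0.11). Egr1 read 5.19, 5.17, 5.78 and 5.44 and Egr2 4.64, 4.74, 5.28 and 4.72, within 0.03 of the control means. The intervals of these differences (95%, limma) ran from −0.41 to 0.36 for Egr1 and from −0.30 to 0.26 for Egr2. Nr4a3 stayed below background in all 4 arrays (2.68 to 3.05). Nr4a2 (5.99 to 6.16), Egr3 (4.44 to 5.01) and Fosb (3.78 to 4.12) overlapped control.

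In LPS-treated cells the values with DHA5HT were lower for the strongly induced receptors, for Egr1 and for Fos, and overlapped those of LPS alone for Nr4a2, Ier3, Atf3, Egr3 and Fosb. Nr4a1 read 7.96, 8.49, 8.49 and 7.38 in LPS+DHA5HT arrays 1 to 4 (mean 8.08 ± 0.53). The difference from LPS alone was −1.87 (SE 0.22), or 3.66-fold, and each array still lay above every array without LPS. Nr4a3 read 3.12, 3.35, 3.63 and 2.97, all under the background level and all under the LPS arrays. Its mean of 3.27 ± 0.29 differed from that of LPS by −1.78 (SE 0.15), at least 2.61-fold lower. Nr4a2 read 6.35, 6.50, 6.28 and 6.53, overlapping the LPS arrays, with a difference of −0.17 (SE 0.10).

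Egr1 read 6.92, 7.38, 7.53 and 6.54, all between the control and the LPS arrays, at −0.89 from LPS (SE 0.18, 1.85-fold). Fos read 6.15, 5.96, 6.41 and 5.75, below every LPS array and overlapping the control arrays, at −0.81 from LPS (SE 0.14, 1.76-fold). Egr2 read 5.40, 5.42, 5.59 and 5.34, again below every LPS array and above every control array, at −0.37 (SE 0.13). Ier3 read 9.28, 9.63, 9.51 and 9.45 and Atf3 11.28, 11.49, 11.12 and 11.36. Both overlapped the LPS arrays, at −0.11 (SE 0.20) and −0.13 (SE 0.11). Egr3 (4.77 to 5.01, −0.16) and Fosb (3.68 to 4.10, −0.20) overlapped them too.

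As a share of the log2 LPS response, the difference was 38.6% for Nr4a1 (SE 3.90), 34.6% for Egr1 (SE 6.22), 38.9% for Egr2 (SE 12.1), 78.7% for Fos (SE 12.1), 32.9% for Atf3 (SE 23.6), 29.5% for Nr4a2 (SE 14.4) and 7.26% for Ier3 (SE 12.3). For Nr4a3 it was 83.1% (SE 6.53), computed from values of which the control and LPS+DHA5HT ones lie under background. Each SE of a share was propagated from the limma SE, with the groups taken to have equal spread. The SDs of Nr4a1 were 0.22 with LPS and 0.53 with both agents. In 5 genes, Nr4a1, Nr4a3, Egr1, Egr2 and Fos, every LPS+DHA5HT array lay below every LPS array, as in 3.91% of all genes (7.89% in either direction, 3.97% higher). Because this comparison bore on the choice of the genes, nothing is read from this count.

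The LPS+DHA5HT arrays differed among themselves in step. Array 4, the one apart on the second component, was the lowest of its group for Nr4a1, Nr4a3, Egr1, Egr2 and Fos, and the highest for Nr4a2. Array 3 was the highest for Nr4a1, Nr4a3, Egr1, Egr2, Egr3 and Fos. Without array 4 the difference from LPS was −1.64 for Nr4a1, −1.68 for Nr4a3, −0.70 for Egr1 and −0.71 for Fos. Without array 1, whose labels conflict, it was −1.83, −1.74, −0.83 and −0.84 in that order, and without both −1.46, −1.56, −0.53 and −0.69. Without both, the share of the LPS response was 30.2% for Nr4a1, 72.8% for Nr4a3, 20.5% for Egr1, 31.7% for Egr2 and 67.3% for Fos. Whether what sets array 4 apart has a part in these values was not tested.

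**Figure D2:**
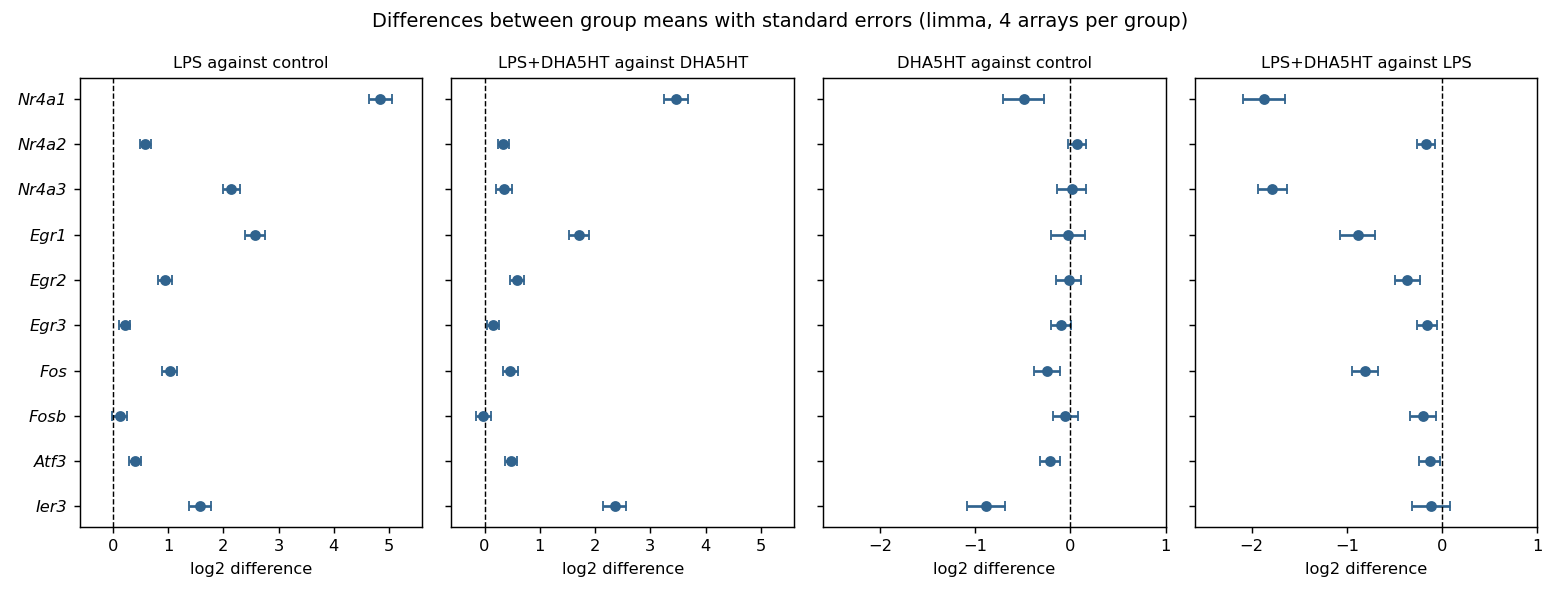
Log2 difference between group means (horizontal axes, points, whiskers of 1 SE, 4 arrays per group) for each gene in 4 comparisons. Both LPS comparisons lie to the right of 0 for most genes, with Nr4a1 at 4.84 and 3.46. In LPS+DHA5HT against LPS, Nr4a1 (−1.87) and Nr4a3 (−1.78) lie farthest to the left and Ier3 (−0.11) near 0, whereas in DHA5HT against control Ier3 lies farthest to the left.

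Put in order of their group means, the genes took different courses over the 4 conditions. For Nr4a1 and Egr1 the order was LPS, then LPS+DHA5HT, then both resting groups, with a clear gap between LPS+DHA5HT and the resting arrays. For Nr4a3 and Fos every LPS array lay above all others, and the LPS+DHA5HT arrays overlapped those of control and of DHA5HT, although the Fos mean was called higher than with DHA5HT alone. Egr2 took the same order of means as Nr4a1, with LPS+DHA5HT arrays at 5.34 to 5.59 and resting arrays at 4.64 to 5.28. For Ier3 and Atf3 the means of both LPS groups were the highest, though the Atf3 arrays with both agents (11.12 to 11.49) overlapped control (10.74 to 11.20). For both genes, as for Nr4a1, Egr1, Egr2, Egr3 and Fos, DHA5HT had the lowest mean. For Ier3 and Atf3 it lay at −0.885 and −0.21 from control. Neither passed in the main fit, while Ier3 passed in some of the alternatives. Nr4a2 had both LPS groups above both resting groups, with overlap within each pair. Egr3 and Fosb showed no order beyond their spread. The difference between the LPS responses with and without DHA5HT was −1.38 for Nr4a1 (SE 0.31), −1.80 for Nr4a3 (SE 0.21), −0.86 for Egr1 (SE 0.26), −0.56 for Fos (SE 0.19) and 0.77 for Ier3 (SE 0.29). Without LPS+DHA5HT arrays 1 and 4 it was −0.97, −1.58, −0.50, −0.45 and 0.87 in that order. It holds the comparison that bore on the choice of genes and is given as a description. Of all genes 0.329% were past the limma threshold for it.

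**Figure D3:**
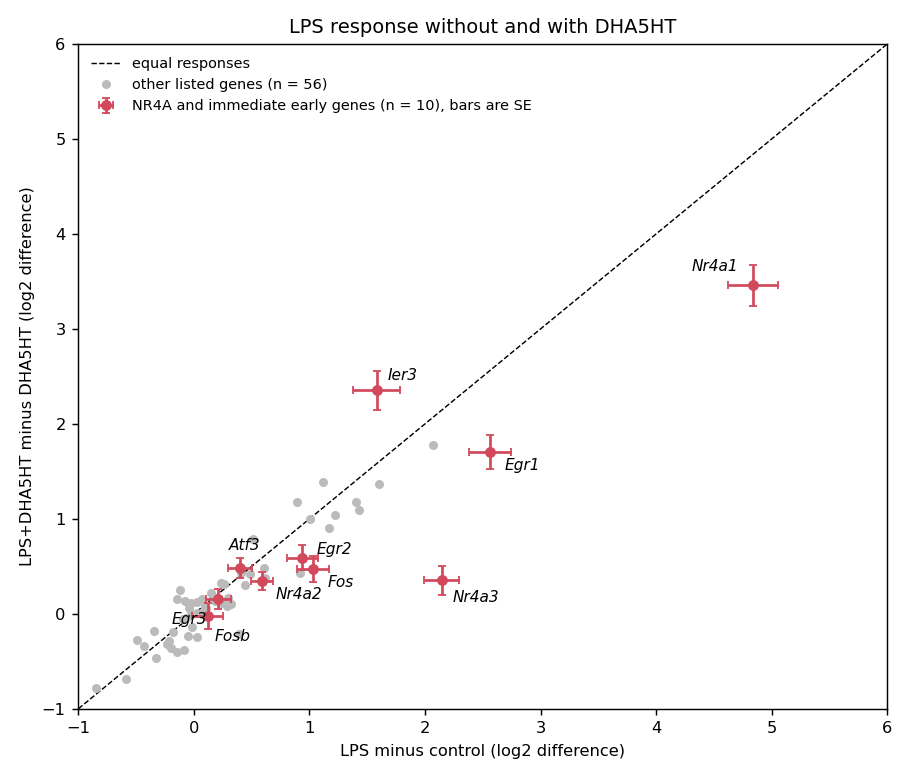
LPS response without DHA5HT (horizontal axis, LPS minus control, log2) against the response with it (vertical axis, LPS+DHA5HT minus DHA5HT, log2), with SE bars for the 10 genes and 56 other listed genes in grey. Points on the dashed line respond equally. Nr4a1, Nr4a3, Egr1, Fos, Egr2 and Nr4a2 lie below the line, and Egr3 and Fosb slightly below it. Atf3 lies slightly above the line and Ier3 (1.58 and 2.35) farther above it.

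Other genes of the same signalling were taken from 4 lists, written with earlier results of these arrays known. Of 14 measured AP-1 and ATF partners LPS raised 6 and lowered 1 against control, where 12.6% of all genes were higher and 15.8% lower. The median difference of the list was 0.20, and that of all genes 0.00. Junb, a partner of Fos, rose by 1.40 (SE 0.09, limma adjusted p = 9.73e-10), Jdp2, a repressor of AP-1, by 1.22, and the small MAF protein gene Maff by 1.12. Jun was the gene that fell, by 0.43 (limma adjusted p = 1.64e-05), named after its value was seen. In LPS+DHA5HT against LPS, where 1.79% of all genes were called (0.972% lower, 0.818% higher), 1 of the 14 was past the threshold, Junb, from a mean of 7.86 to 7.46 (−0.40, SE 0.09).

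Of 26 other immediate early genes LPS raised 12 and lowered 2, beside 12.6% and 15.8% of all genes, with a median of 0.21. The kinase gene Plk3 rose by 2.07 (SE 0.12, limma adjusted p = 2.46e-10), Zfp36, whose product speeds the decay of cytokine transcripts, by 1.61 and the stress gene Gadd45b by 1.43. In LPS+DHA5HT against LPS 4 of the 26 lay lower past the threshold and 1 higher, beside 0.972% and 0.818% of all genes: Arc, a neuronal plasticity gene, at −0.67, Zfp36 at −0.48, Gadd45b at −0.44, Btg2, an antiproliferative gene, at −0.39, and the growth gene Myc at 0.51. In DHA5HT against control 1 rose and 1 fell, beside 0.122% and 0.478% of all genes: the clock gene Per1 fell by 0.34 (SE 0.07, limma adjusted p = 0.0218), and Egr4, a further EGR gene, rose from 3.57, under the background level, to 4.20 (limma adjusted p = 0.0064). Over all lists, the count of genes past the threshold in LPS+DHA5HT against LPS was 6 with all arrays, 3 without LPS array 4, 2 without LPS+DHA5HT array 4 (Gadd45b and Zfp36) and 1 without LPS+DHA5HT arrays 1 and 4 (Zfp36). Over all 18820 genes the counts were 337, 177, 154 and 41 in that order. In DHA5HT against control the count over all lists was 2 with all arrays and 1 without control array 1, 2 or 4 or DHA5HT array 1, 2 or 3. Over all genes it was 113 with all arrays and 83 to 113 without 1 of those arrays.

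Of 13 measured regulators of these genes (SRF, CREB and EGR cofactors) LPS raised 2 and lowered 5, beside 12.6% and 15.8% of all genes, with a median of −0.04. Mrtfa, a coactivator of SRF, fell by 0.85 (SE 0.09, limma adjusted p = 4.84e-07), Crtc2, a coactivator of CREB, rose by 0.48 and Crem, which encodes CREB-like activators and repressors, by 0.41. In DHA5HT against control and in LPS+DHA5HT against LPS 0 of the 13 passed. Of the 3 retinoid X receptor genes, whose products pair with NR4A1 and NR4A2, 0 passed in LPS against control, at −0.14 to 0.11. In LPS+DHA5HT against DHA5HT, where 15.7% of all genes were lower, Rxra and Rxrb fell by 0.41 and 0.24 (limma adjusted p = 0.00499 and 0.00915). That comparison was not among those used to name genes of the lists. In it 8 AP-1 and ATF partners were higher and 2 lower. Of the other immediate early genes 8 were higher and 1 lower, and of the regulators 2 and 5. The Rxra means were 6.07 in control, 6.37 with DHA5HT, 5.93 with LPS and 5.97 with both agents.

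The genes with the most similar courses were sought by the root mean square difference of gene-centred log2 values over the 16 arrays, for the 5 listed genes whose group means spanned more than 1. Nearest to Nr4a1 were Stfa3 (0.34), Sprr2d (0.34) and Inhba (0.37), with LPS and LPS+DHA5HT means of 8.23 and 6.82, 8.32 and 6.69, and 9.57 and 8.01. Nearest to Nr4a3 were Csn1s1 (0.30), Tnnt2 (0.36) and Slfn1 (0.39). Nearest to Egr1 were Csta3, Dgkh and Slpi, at 0.25 to 0.26, and to Fos were Peg10, Hivep3 and Samsn1, at 0.17 to 0.18. The course of Ier3 was nearest to those of Ifi202b (0.25), Isg20 (0.27) and Cdc42ep2 (0.28). As for Ier3, the DHA5HT mean of each of these 3 was below its control mean, 7.61 against 8.63 for Ifi202b, 7.90 against 9.11 for Isg20 and 5.2 against 5.86 for Cdc42ep2. With LPS and with both agents the means were 10.03 and 10.05 for Ifi202b, 10.41 and 10.36 for Isg20, and 7.48 and 7.53 for Cdc42ep2. These neighbours were picked for their likeness to the listed genes, so their values are a description.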

How the data were processed

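RNA of 16 RAW264.7 samples (100 ng per array, RNA integrity number above 8, per the labels' protocols) was read on Affymetrix whole-transcript arrays. The authors deposited log2 values from RMA, per the submitters' processing notes. Its version, annotation and filters are not given in the sources used here. Of 35556 probe sets 21218 named exactly 1 gene. The one with the highest mean per gene was kept, leaving 18820 genes. Groups followed the sample titles. Differences were tested by lmFit and eBayes of limma 3.58.1, run in R 4.3.3, on 4 group means (12 residual degrees of freedom, two-sided), with Benjamini-Hochberg adjustment over all genes within a comparison and a threshold of 0.05, and tested on simulated data. All 10 listed genes are named. Of each other list, the 3 largest changes with LPS are named, and every gene past the threshold in DHA5HT against control or LPS+DHA5HT against LPS. Jun, Rxra and Rxrb are named outside this rule. The listed genes and lists were chosen with earlier results of these data known. The background level is the median of markers of cell types other than macrophages. The number of arrays limits the precision. As alternatives, fits used an intensity trend, a replicate block, a filter on dim genes, quantile normalization, centring, all probe sets, array weights, fits on compared arrays, a threshold of 0.01, and leaving out arrays. Leaving out LPS+DHA5HT arrays 1 and 4 together was added after seeing the data.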

Additional observations from a re-analysis of the deposited data

Results flagged for a closer look

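Among 40 sets of 4 arrays (10 genes in 4 groups), 2 held an array far from the other 3, where chance gives about 1 in 20 sets: Nr4a1 at 5.01 in DHA5HT array 4, and Egr2 at 5.28 in DHA5HT array 3. The DHA5HT difference of Nr4a3 was larger with LPS than without it, by −1.80 on the log2 scale. This is a description and not a test, since it contains the comparison by which the gene was chosen, and 3 of its 4 group means lie under the background level.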

How the results depend on the processing

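In LPS against control the count of genes called was 8 in each fit that left out 1 array, and in LPS+DHA5HT against DHA5HT it was 6 to 8. For the main effect of LPS it was 8 to 9. In DHA5HT against control it was 0 to 1, and in each case of 1 the gene was Ier3. That count was 1 with the replicate block, with an intensity trend and among genes above the median gene, again Ier3 (limma adjusted p = 0.0118 with the block). The next counts use values that bore on the choice of genes and only describe the fits. In LPS+DHA5HT against LPS the count was 4 with all arrays, 3 to 4 when 1 array was left out, 5 with the replicate block (Egr2 added) and 2 without LPS+DHA5HT arrays 1 and 4. For the difference between the LPS responses it was 1 with all arrays, 1 to 2 when 1 array was left out and 2 with an intensity trend. The replicate block moved the number of all genes called in LPS+DHA5HT against LPS from 337 to 647. The array numbers were not taken as pairs in the main fits. Deviations of same-numbered arrays correlated at 0.07 to 0.232, above 0.1 in 19 of 24 pairs. Those of other pairs correlated at −0.203 to 0.165, above 0.1 in 5 of 72. On average 15 of 16 arrays were closest to their own number. The medians were 0.129 for same-numbered pairs and −0.064 for other pairs. Arrays of the same number thus resembled one another, but no label ties a number to a shared batch. The main fits leave this likeness out. The Ier3 result in DHA5HT against control and the 337 calls in LPS+DHA5HT against LPS change with that choice. By number, DHA5HT lay below control in 4 of 4 for Ier3, Nr4a1, Fos and Atf3. Counts over all genes moved by over 1.5 times in LPS+DHA5HT against LPS, to 557 among the 9410 genes above the median gene. They were 86 with compared arrays only, 81 at a threshold of 0.01 and 41 without arrays 1 and 4. When 1 array was left out they ran from 143 to 289. In DHA5HT against control the replicate block moved the count from 113 to 179. For the difference between the LPS responses the block moved it from 62 to 96. That count was 28 at a threshold of 0.01, 36 without arrays 1 and 4, and 34 to 62 when 1 array was left out. The causes were not tested. Nr4a3 lies under the background level in 3 of 4 groups, which limits what its differences show.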
